A study of Drosophila melanogaster with 12 samples.

Results

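The genes described here are protein-coding genes of Drosophila melanogaster, listed in the deposited mRNA table under a CG number only, whose transcript level was higher in klp10ARNAi testes than in wild type testes. A CG number is the systematic identifier that a fly gene receives from the genome annotation, and many genes that carry nothing else have not been studied one by one. Of 15367 rows in the table, 7715 were CG-number genes, and 54 of them met the rule. Each library was scaled to 1000000 counts over the gene rows that were neither transposable elements (TEs), nor CR-number non-coding genes, nor rows with RNA: in their symbol, and the resulting value is called the level of a gene. A gene was taken when its mean level in the 3 klp10ARNAi libraries was at least 1 and its lowest klp10ARNAi level was at least 1.5 times its highest wild type level. The contrast between the genotypes thus chose the 54 genes, so their differences between the genotypes are given as a description and no test of that contrast is read as support.

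The study sequenced ribosomal RNA-depleted total RNA, and small RNA that is not described here, from testes of flies aged 0 to 2 days. The wild type group had 3 mRNA libraries, with the strain not given in the sources used here. The klp10ARNAi group had 3 mRNA libraries from flies in which nos-gal4, a driver active in the germline, expressed a UAS-klp10A TRiP hairpin. Klp10A is a kinesin that depolymerizes microtubules. Each library was a biological replicate made from 300 pairs of testes, so it averages over animals and over all cells of the dissected organ, including somatic cells in which nos-gal4 is not expected to act. Whether the wild type flies carried the driver is not given in the sources used here, so effects of the knockdown, of the driver and hairpin insertions and of the genetic background cannot be told apart.

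In the fly testis, germline stem cells at the apical tip give rise to spermatogonia, which divide a few times and become spermatocytes. Spermatocytes grow and turn on a large programme of transcription that supplies meiosis and sperm formation, and many genes known only by a CG number are transcribed at that stage. Somatic hub and cyst cells enclose the germ cells, and dissected testes can carry pieces of the seminal tract, gut, Malpighian tubule, fat body and muscle.

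The 6 libraries held between 18634687 and 25536724 counts, and 27.8% to 50.1% of these lay on the rows used for scaling. That share was 27.8% to 41.5% in wild type and 38.5% to 50.1% in klp10ARNAi, while CR-number genes took 30.6% to 51.6% of the counts in wild type and 24.9% to 37.2% in klp10ARNAi. A single count corresponded to a level of 0.102 to 0.179. Over all genes, wild type replicate 2 and klp10ARNAi replicate 2 were the library farthest from the other replicates of their genotype. Klp10A itself was counted 1458, 802 and 1527 times in wild type and 327, 364 and 313 times in klp10ARNAi, and its transcript fell by 2.35 on the log2 scale (SE 0.16, adjusted p = 0.00105, edgeR quasi-likelihood test with Benjamini-Hochberg adjustment). Without klp10ARNAi replicate 1 or replicate 3 its adjusted p in edgeR was 0.0114 and 0.0174, past the limit of 0.01.

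Of the 6072 CG-number genes with a mean klp10ARNAi level of at least 1, 0.889% met the rule. Of the 5286 other genes with such a level, 46 (0.87%) met it as well, so the share was nearly equal in genes with a CG number only and in genes with a given symbol. The mirrored rule, with wild type as the higher genotype, was met by 307 of 6218 CG-number genes (4.94%). Levels that did not overlap between genotypes were common on their own: 27.4% of the 6072 CG-number genes had every klp10ARNAi level above every wild type level. In bulk samples like these, a gene transcribed in more or fewer cells and a gene with more or less RNA per cell cannot be told apart.

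Summed over the 54 genes, the level was 553, 534 and 587 in wild type replicates 1 to 3 and 1181, 1155 and 1138 in klp10ARNAi replicates 1 to 3. The mean klp10ARNAi sum was 2.07 times the mean wild type sum, and the replicates of each genotype were close. Gene by gene, the ratio of the mean levels ran from 1.61 to 12 with a median of 2.09. It was below 2 in 22 genes, from 2 to 3 in 23 and 3 or more in 9. In the edgeR fit, 49 of the 54 genes passed the low-count filter, with a median log2 difference of 1.0 (range 0.62 to 3.39) against 0.01 over all 12100 features tested and 0.08 over the 6071 CG-number genes tested. At an adjusted p under 0.01, edgeR called 2.02% of all features, 0.198% higher in klp10ARNAi and 1.83% lower, and the members called higher numbered 9, or 33 by DESeq2 and 0 by edgeR without any 1 of the klp10ARNAi libraries, where 49 to 51 members had an unadjusted p under 0.05. At an adjusted p under 0.1, it called 13.9% of all features, 4.1% higher and 9.83% lower, and the members called numbered 49. Since the same contrast chose the members, nothing is read from these counts.

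**Figure D1:**
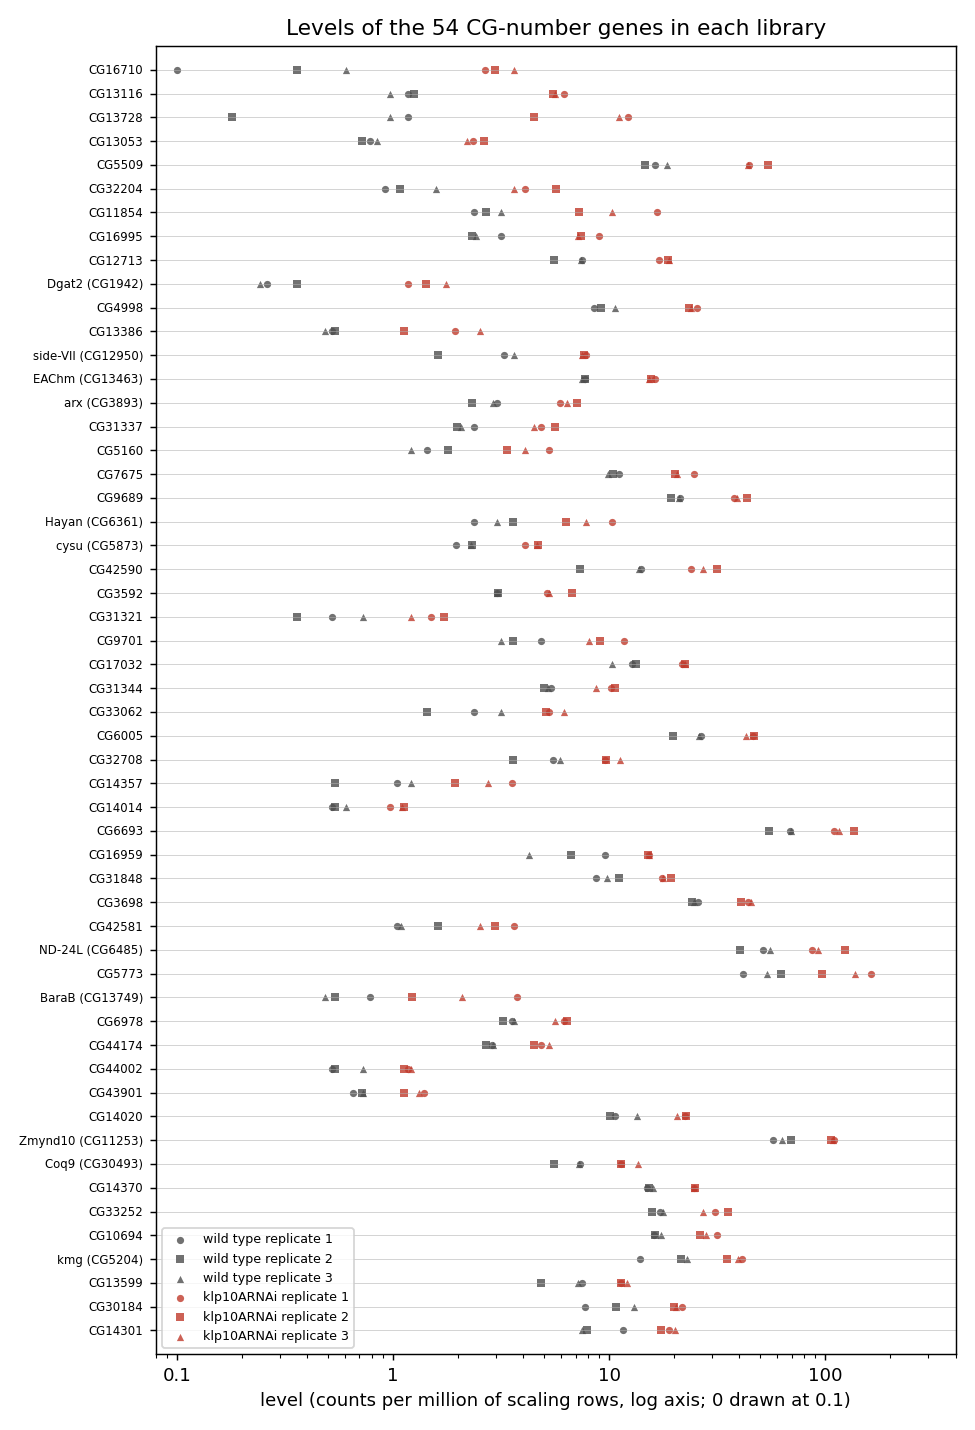
Level of each of the 54 genes in the 6 libraries, as counts per 1000000 counts of the scaling rows on a log axis. Rows are in the order of the ratio of lowest klp10ARNAi to highest wild type level, with wild type library counts under 3 set to 3. Grey marks are wild type and red marks klp10ARNAi, with one mark shape per replicate, and a level of 0 is drawn at 0.1. In every row the 3 red marks lie to the right of the 3 grey marks, as the rule requires, and the rows differ in how far apart they lie.

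The widest separations belonged to genes that were close to the counting limit in wild type. CG16710, which RefSeq also lists as cSP16 of the clip-domain serine protease family, had wild type levels of 0, 0.359 and 0.605 and klp10ARNAi levels of 2.68, 2.95 and 3.63. All klp10ARNAi libraries were more than 4 times above the highest wild type library, but the wild type values rest on 0, 2 and 5 counts. From the pooled counts the ratio was 9.45, with a 95% exact binomial interval of 4.40 to 24.2 that covers counting error only. Its log2 difference in edgeR was 3.12 with all libraries, 2.52 without wild type replicate 1 and 4.15 without wild type replicate 3. CG13116 stood at 1.18, 1.26 and 0.968 in wild type and at 6.22, 5.50 and 5.62 in klp10ARNAi. Its replicates were close together in both genotypes (1.13 ± 0.15 and 5.78 ± 0.38, mean ± SD, n = 3), and its ratio of means was 5.09. CG13728 had the highest ratio of means, 12, with 1.18, 0.179 and 0.968 in wild type against 12.2, 4.48 and 11.1 in klp10ARNAi. Here replicate 2 was the lowest library in both genotypes, and the klp10ARNAi replicates spanned a 2.73-fold range.

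Dgat2 (CG1942), one of the fly genes for the enzyme that makes triacylglycerol from diacylglycerol, was counted 2 times in each wild type library and 11, 14 and 16 times in klp10ARNAi. The pooled ratio was 5.20, with a counting interval of 2.19 to 15.0. CG13053 reached 0.786, 0.718 and 0.847 in wild type and 2.36, 2.65 and 2.20 in klp10ARNAi. These groups were tight and far apart, although no wild type library held more than 7 counts of this gene. CG32204 had 0.917, 1.08 and 1.57 in wild type and 4.07, 5.70 and 3.63 in klp10ARNAi, where replicate 2 was the highest library.

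Other genes with a wide separation were counted more often. CG5509 had wild type levels of 16.4, 14.7 and 18.5 and klp10ARNAi levels of 44.2, 54.3 and 43.8, a ratio of means of 2.87. It was the only gene among both the 10 widest separations and the 10 highest klp10ARNAi levels, and its lowest klp10ARNAi library was 2.37 times its highest wild type library. CG12713 had 7.47, 5.56 and 7.38 in wild type and 16.9, 18.7 and 18.9 in klp10ARNAi. CG16995 had 3.14, 2.33 and 2.42 against 9, 7.43 and 7.16. In both genes the replicates of a genotype lay close to each other, with ratios of means of 2.68 and 2.99. CG11854 had 2.36, 2.69 and 3.15 in wild type and 16.7, 7.23 and 10.4 in klp10ARNAi, so its wild type libraries were alike whereas its klp10ARNAi libraries spread over a 2.31-fold range.

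CG11854 overlaps bam, the gene that starts differentiation of spermatogonia, in the RefSeq annotation. The level of bam in wild type replicates 1 to 3 was 3.14, 2.87 and 3.15, and in klp10ARNAi it was 6, 3.36 and 4.96 in klp10ARNAi, with a log2 difference of 0.57 (SE 0.26) that did not pass the edgeR test (adjusted p = 0.216). As for CG11854, the highest klp10ARNAi value of bam was in replicate 1 and the lowest in replicate 2. The libraries were made with a strand-specific kit, but the strand setting of the counting is not given in the sources used here, so how reads from the shared stretch were divided is unknown.

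The genes with the most counts were less far apart. CG5773 had wild type levels of 41.5, 62.1 and 53.9 and klp10ARNAi levels of 162, 97.0 and 137. Its klp10ARNAi mean of 132 was the highest of the 54 genes, and klp10ARNAi replicate 2 lay nearest to wild type. CG6693, a J domain-containing protein, had 68.8, 54.9 and 69.2 against 110, 136 and 116, and here wild type replicate 2 was the lowest and klp10ARNAi replicate 2 the highest library. CG6005 (26.6, 19.7 and 26 against 46.5, 46.9 and 43.0) and CG3698 (25.8, 24.2 and 24.6 against 44.0, 40.6 and 45.2) had ratios of means of 1.89 and 1.74. CG9689 had 21.2, 19.4 and 20.9 in wild type and 37.8, 43.3 and 39.2 in klp10ARNAi. CG33252 had 17.2, 15.8 and 17.8 in wild type and 30.8, 35.3 and 27.2 in klp10ARNAi. In these 4 genes the 3 replicates of each genotype were close, and the ratios of means stayed below 2.

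**Figure D2:**
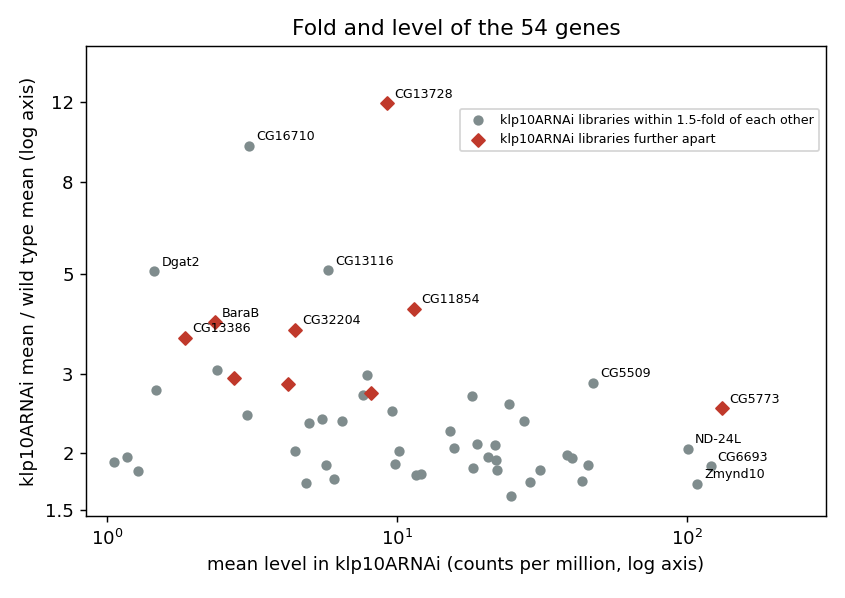
Ratio of the mean klp10ARNAi level to the mean wild type level against the mean klp10ARNAi level (counts per 1000000 counts of the scaling rows) for the 54 genes, one mark per gene, on log axes. Red diamonds are the 9 genes whose klp10ARNAi libraries differed by more than 1.5-fold and grey circles the others, and ratios were higher at low levels: the median was 2.69 in the 27 genes with a mean klp10ARNAi level below 10 and 1.96 in the 27 genes at or above 10. A gene whose replicates vary more, as at few counts, meets the rule only with a larger ratio of means. The trend is thus not read as a property of the genes.

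By level, 4 of the 54 genes had a klp10ARNAi mean of at least 100, 23 lay between 10 and 100, 27 lay below 10 and 6 of these below 2. Their median klp10ARNAi level of 9.99 was below the median of 23.6 over the 6072 CG-number genes, and their median wild type level of 4.43 was below the 23.5 over those genes. Among the genes at or above a level of 10, the highest ratio of means was 4.18, that of CG11854. The 95% counting interval of the pooled ratio included 1 for 3 genes. These were CG14014 (12 counts in wild type and 30 in klp10ARNAi), CG44002 (13 and 33) and CG43901 (15 and 36). For 43 of the 54 genes the lower bound of that interval was above 1.5. The rule had already set every pooled ratio to at least 1.5, and the intervals leave out the spread between replicates. They show how few counts a ratio rests on and are not read as support for a difference.

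RefSeq Release 6 matched all 54 genes and lists each as protein coding. It gives 43 of them under the CG number and 11 under another symbol, and these 11, together with CG4998, were picked for the next accounts by name, after their values had been seen. They include genes with known work in the germline. arx (CG3893, also Gtsf1), a small zinc finger protein needed for Piwi-dependent transcriptional silencing of TEs in ovaries, had wild type levels of 3.01, 2.33 and 2.91 and klp10ARNAi levels of 5.89, 7.13 and 6.39. The groups stood apart by a ratio of means of 2.35, and the lowest klp10ARNAi value was 1.96 times the highest wild type value. kmg (CG5204), a zinc finger protein that keeps genes of other tissues off in spermatocytes, had 13.9, 21.5 and 23 in wild type and 41.3, 35.0 and 39.6 in klp10ARNAi. Its lowest klp10ARNAi library was 1.52 times its highest wild type library, one of the narrowest separations, with wild type libraries that ran from 13.9 to 23.

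Genes for cilia and mitochondria were also among the 54. Zmynd10 (CG11253), which assists the assembly of the dynein arms that move cilia and sperm tails, had 57.5, 69.1 and 63.2 in wild type and 110, 106 and 108 in klp10ARNAi. The klp10ARNAi libraries were nearly equal (108 ± 1.77, SD, n = 3), and the ratio of means was 1.71. ND-24L (CG6485), a paralog of the 24 kDa subunit of respiratory complex I, had 51.5, 40.4 and 55.3 in wild type and 86.7, 123 and 92.1 in klp10ARNAi, with replicate 2 lowest in wild type and highest in klp10ARNAi. Coq9 (CG30493), which acts in the synthesis of ubiquinone, had 7.34, 5.56 and 7.26 against 11.4, 11.3 and 13.5, a ratio of means of 1.80.

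Another 3 genes share a protein family by name. Beside CG16710 above, Hayan (CG6361, also cSP31), a serine protease that acts upstream of melanization and Toll signalling in the hemolymph, had 2.36, 3.59 and 3.03 in wild type and 10.3, 6.31 and 7.82 in klp10ARNAi. CG4998, listed as cSPH66, a name given to a clip-domain serine protease homolog, had 8.52, 9.15 and 10.7 against 25.5, 23.3 and 24.0. The ratios of means of the 3 were 9.61, 2.72 and 2.57, and CG4998 had the most counts and the closest replicates. RefSeq gives such a cSP or cSPH name to 52 genes of the table, and the 31 of them that were tested and not members had a median log2 difference of -0.14 (range -1.89 to 1.01). Of these 31, edgeR called 0 higher and 1 lower at an adjusted p under 0.01, DESeq2 1 higher and 1 lower, and 4 were higher and 6 lower at an unadjusted p under 0.05 in edgeR. BaraB (CG13749), of the Baramicin family, had 0.786, 0.538 and 0.484 in wild type and 3.75, 1.22 and 2.09 in klp10ARNAi. Its klp10ARNAi replicate 2 was lowest and only 1.55 times the highest wild type library.

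The remaining genes with a symbol have other functions. EAChm (CG13463), named as an enhancer of the acetyltransferase Chameau, had 7.73, 7.71 and 7.51 in wild type and 16.3, 15.6 and 15.3 in klp10ARNAi. The replicates of each genotype were close, and the ratio of means was 2.06. side-VII (CG12950), an immunoglobulin-domain cell surface protein of the Sidestep family, had 3.28, 1.61 and 3.63 against 7.82, 7.64 and 7.49, so the spread was in wild type. cysu (CG5873, also HPX5), a heme peroxidase, had 1.97, 2.33 and 2.30 against 4.07, 4.68 and 4.63.

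Apart from the genes named so far and those that follow for their spread, position or nearness to the threshold, 16 genes remained: CG7675, CG42590, CG3592, CG31321, CG9701 (listed also as klotho), CG17032, CG31344, CG33062, CG32708, CG16959, CG31848, CG42581, CG6978, CG44174, CG14020 and CG10694. Their ratios of means ran from 1.72 to 2.76 with a median of 1.98. Their mean levels ran from 0.536 to 16.6 in wild type and from 1.48 to 28.7 in klp10ARNAi. Among them CG16959 had klp10ARNAi levels of 15.3, 15.2 and 15.3, while its wild type levels of 9.57, 6.64 and 4.24 differed more from each other.

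The 54 genes did not share one pattern over the klp10ARNAi libraries. The highest klp10ARNAi level exceeded the lowest by more than 1.5-fold in 9 of them (16.7%), against 18.1% of the 6072 CG-number genes. These 9 were CG13728, CG32204, CG11854, CG13386, CG5160, Hayan, CG14357, CG5773 and BaraB. In 8 of the 9 the lowest library was replicate 2 and in 7 the highest was replicate 1. CG5160 had 1.44, 1.79 and 1.21 in wild type and 5.25, 3.36 and 4.07 in klp10ARNAi, CG14357 had 1.05, 0.538 and 1.21 against 3.54, 1.93 and 2.75, and CG13386 had 0.524, 0.538 and 0.484 against 1.93, 1.12 and 2.53. In each of these 3, klp10ARNAi replicate 2 was the closest to wild type. Over all 54 genes the lowest klp10ARNAi library was replicate 1 in 27.8%, replicate 2 in 42.6% and replicate 3 in 29.6%, against 30.7%, 38.1% and 31.2% of the 6072 CG-number genes. The highest wild type library was replicate 1 in 33.3%, replicate 2 in 22.2% and replicate 3 in 44.4%, against 37.4%, 37.9% and 24.7%, so replicate 3 set the limit more often among the 54 than in the whole, a difference that was not tested.

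Many of the 54 genes lay close to the limit of the rule. Their median ratio of lowest klp10ARNAi to highest wild type level was 1.62, with 24 genes below 1.6 and 13 with a ratio of at least 2 when library counts under 3 were set to 3. Just inside the limit, CG14301 had wild type levels of 11.5, 7.89 and 7.51 and klp10ARNAi levels of 18.9, 17.4 and 20.2 (ratio 1.51), and CG30184 and CG13599 both had a ratio of 1.52. Just outside it, CG8173 had 14.2, 16.7 and 15.7 against 28.7, 25.6 and 24.9 (ratio 1.49), and CG32971 and CG33465 both had a ratio of 1.48. Nothing in these values separates the genes on either side of the limit. Among the 6072 CG-number genes, 24 had a ratio between 1.5 and 1.6 and 30 between 1.4 and 1.5.

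The rule was next applied to 5 libraries, and the genes so chosen were read in the library left out. This step was added after the data had been seen. The libraries of the other genotype took part in the choice, which favours the chosen genes over all CG-number genes. The reading is independent on the side of the left-out library only. Leaving out klp10ARNAi replicates 1, 2 and 3, the 5 libraries chose 69, 91 and 77 genes, and 98.6%, 87.9% and 94.8% of these had a left-out level above all wild type levels. Of all CG-number genes with a sufficient level, 40.7%, 44.7% and 39.3% did. Fewer, 81.2%, 59.3% and 71.4% of the chosen genes, met the limit of 1.5 in the left-out library itself, against 3.22%, 3.46% and 2.21% of all. Leaving out wild type replicates 1, 2 and 3, the 5 libraries chose 77, 84 and 124 genes, and 94.8%, 90.5% and 94.4% had a left-out level below all klp10ARNAi levels, against 44.5%, 50.9% and 45.4% of all. Of these genes 70.1%, 64.3% and 43.5% met the limit of 1.5 in the left-out library, against 5.53%, 20.0% and 2.37% of all. The genes that met it were the 54 again each time, since the choice and this limit together make up the rule. With klp10ARNAi replicates 1, 2 and 3 left out they numbered 56, 54 and 55, for the same reason. Nothing is read from the shares that met the limit.

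The left-out difference was smaller than the difference in the libraries that chose the genes. With klp10ARNAi replicate 1, 2 or 3 left out, the median ratio of that library to the wild type mean was 1.99, 1.85 and 1.95, against 2.09, 2.07 and 2.08 in the libraries used. With wild type replicate 1, 2 or 3 left out, it was 1.89, 1.92 and 1.58, against 2.25, 1.99 and 1.98. Wild type replicate 3 thus gave the smallest left-out difference, and leaving it out more than doubled the number of genes, from 54 to 124.

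**Figure D3:**
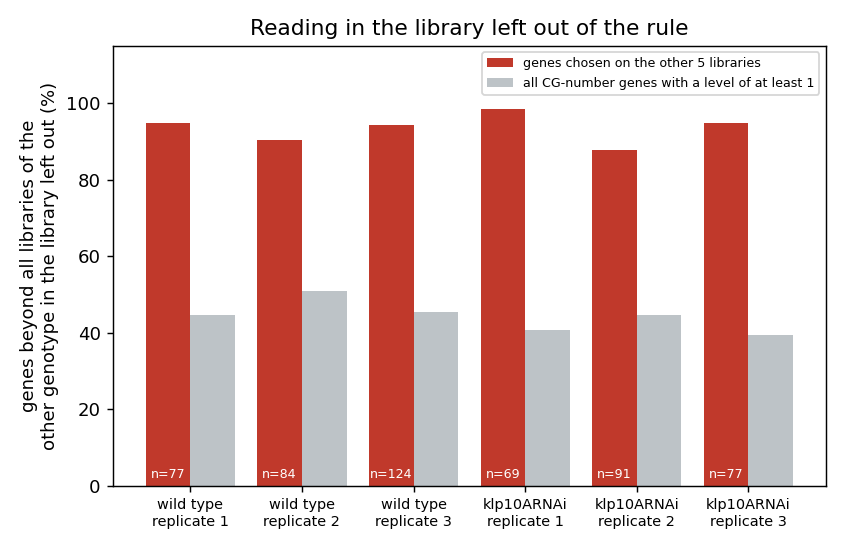
Share of genes, in percent, whose level in a left-out library lay beyond all libraries of the other genotype, for genes chosen by the rule on the other 5 libraries and for all CG-number genes with a mean klp10ARNAi level of at least 1 in the libraries used. Each pair of bars is one left-out library, with the number of chosen genes printed in the red bar. The chosen genes (red) lay between 87.9% and 98.6% and all CG-number genes (grey) between 39.3% and 50.9%. The libraries of the other genotype took part in the choice, which favours the red bars, so the bars of a pair are not on equal terms.

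Markers of the cell types that a testis preparation can hold were measured in the same libraries, in 15 lists with 188 markers present in the table. None of the 54 genes is in a list. The spermatocyte markers, among them the meiotic arrest genes that drive the spermatocyte programme, had a summed level of 729 to 1013 in wild type and 1183 to 1231 in klp10ARNAi. All 12 were above 0 in edgeR log2 difference with a median of 0.46, and edgeR called 0 of 12 at an adjusted p under 0.01, as did DESeq2, with 8 of 12 higher at an unadjusted p under 0.05. The spermatogonia markers, such as bam and vas, summed to 170 to 192 in wild type and 221 to 242 in klp10ARNAi. Their log2 difference had a median of 0.29 over 10 genes, 7 of them above 0. The largest part of the sums, bgcn, had 0.38, while stg, esg and AGO3 had -0.84, -0.80 and -0.09. None of the 10 spermatogonia markers was called by edgeR or DESeq2, and 3 were higher and 1 lower at an unadjusted p under 0.05. The spermatid markers overlapped between genotypes (8958 to 11514 against 10589 to 12252, median 0.10), with 18 of 22 above 0. Of these 22, edgeR called 0 and DESeq2 1 higher, and 1 was higher and 0 lower at an unadjusted p under 0.05 in edgeR.

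Several lists of somatic markers had lower sums in klp10ARNAi. Hub and cyst cell markers summed to 354 to 408 in wild type and 319 to 335 in klp10ARNAi, with a median log2 difference of -0.26. Of these 10, edgeR and DESeq2 called 0, and 1 was higher and 2 lower at an unadjusted p under 0.05. Midgut markers, mostly digestive proteases, summed to 1219 to 1507 against 532 to 683 with a median of -3.88, and edgeR called 1 of 16 lower and DESeq2 14. The largest levels in these sums were those of the amylases Amy-p (383, 519 and 470 against 220, 254 and 301) and Amy-d (371, 521 and 465 against 219, 250 and 287). Proteases differed widely among the wild type libraries, such as alphaTry with 107, 4.13 and 36.3 against 0.965, 0.713 and 0.551. Malpighian tubule markers summed to 2071 to 2738 against 1356 to 1503, a median of -1.08, with 4 of 12 lower and 1, Cyp4e3, higher in edgeR. DESeq2 called 8 of these 12 lower and 1 higher, and 10 were lower and 1 higher at an unadjusted p under 0.05 in edgeR. Muscle markers summed to 2961 to 3153 against 1689 to 2568, a median of -0.65, with 0 of 14 called by edgeR, 6 lower by DESeq2 and 10 lower at an unadjusted p under 0.05. The part of these differences in the levels of the 54 genes was not tested.

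The sums of the other lists overlapped between genotypes, apart from those of hemocytes, neurons and pigment cells. Accessory gland markers summed to 7274 to 12038 in wild type and 6362 to 8419 in klp10ARNAi, with a median log2 difference of -0.54 and 1 of 15 above 0. At an adjusted p under 0.01 edgeR and DESeq2 called 0 of these 15, and 8 were lower and 1 higher at an unadjusted p under 0.05. Antimicrobial peptides summed to 90.2 to 245 against 84.5 to 129, with a median of -1.09 and 0 of 10 above 0, and edgeR and DESeq2 called 0 of the 10, with 3 lower at an unadjusted p under 0.05. Ejaculatory duct and bulb markers (8652 to 11552 against 8907 to 9488), fat body markers (108 to 127 against 114 to 136) and heat shock genes (5589 to 7551 against 6422 to 9632) had medians of 0.01, 0.11 and 0.18. Of these 3 lists edgeR called 0 genes, and DESeq2 called 1 duct and bulb marker higher and 1 lower, 1 fat body marker lower and 2 heat shock genes higher. At an unadjusted p under 0.05 in edgeR, 1 duct and bulb marker was higher and 1 lower, 1 fat body marker was lower, and 4 heat shock genes were higher and 1 lower.

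Hemocyte markers summed to 235 to 257 in wild type and 303 to 373 in klp10ARNAi. Of the 5 tested, edgeR and DESeq2 called 1, Pxn, higher. Its levels were 71.5, 79.7 and 59.4 in wild type and 190, 145 and 188 in klp10ARNAi. The median log2 difference of the list was -0.34 with 2 of 5 above 0, and 1 was higher and 1 lower at an unadjusted p under 0.05 in edgeR. Neuron markers summed to 65.2 to 72.9 against 47.8 to 51.9, with a median of -0.09 and 2 of 7 above 0. Of these 7, edgeR called 0 and DESeq2 1 lower, and 1 was higher and 3 lower at an unadjusted p under 0.05 in edgeR. In the pigment list, w, the eye colour gene carried by many transgenes, had wild type levels of 8.26, 7.36 and 13.0 and klp10ARNAi levels of 185, 199.7 and 192, and st, another eye colour gene, had 21.8, 21.9 and 13.2 against 0.429, 2.14 and 0.881. Both passed the edgeR test at 0.01, w with a log2 difference of 4.26 and st with -4.06. The part of a difference in genetic background in the levels of the 54 genes was not tested.

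**Figure D4:**
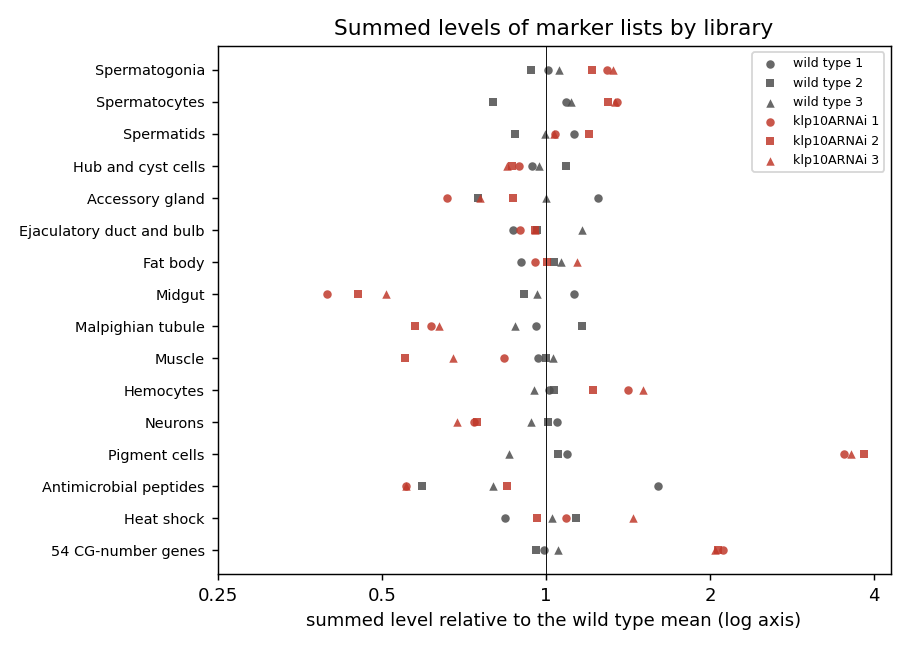
Summed level of each marker list in each library, relative to the wild type mean of that list, on a log axis, with the summed level of the 54 genes for comparison. Grey marks are wild type and red marks klp10ARNAi libraries, with one mark shape per replicate. The mean klp10ARNAi sum was 1.33 times the wild type mean for the spermatocyte markers and 1.28 times for the spermatogonia markers, and the 54 genes, at 2.07 times, were chosen for their separation in these libraries.

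Levels were also taken relative to the summed germ cell markers, a scaling added after the data had been seen. The spermatocyte sums were 911 ± 158 in wild type and 1212 ± 25.6 in klp10ARNAi (mean ± SD, n = 3). Their largest part was bol, with 619, 331 and 569 in wild type and 621, 631 and 627 in klp10ARNAi (log2 difference 0.24). Values relative to the spermatocyte sums thus depend largely on bol, and bgcn was the largest part of the spermatogonia sums. Relative to the spermatocyte sums, the median ratio of means of the 54 genes was 1.55 and 12 genes met the rule. The genotypes did not overlap for 45 of the 54, against 2.26% of the 6072 CG-number genes. Relative to the spermatogonia markers (182 ± 10.8 and 232 ± 10.7), the median was 1.63, 14 genes met the rule, and none of the 54 overlapped, against 3.54% of the 6072 without overlap. Since the rule had already required a separation of at least 1.5 in the same libraries, which is above the ratio of either marker sum, these values describe the 54 genes, and how far their levels follow the germ cell content was not tested.

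The 54 genes were spread over the genome. The X chromosome held 8 of them (14.8%, against 16.3% of the 6072 CG-number genes), arm 2L 9 (16.7% against 19.7%), arm 2R 5 (9.26% against 19%), arm 3L 15 (27.8% against 19.1%) and arm 3R 17 (31.5% against 24.8%), with none on chromosome 4 or Y, which hold 25 and 11 of the 6072. Only CG31337 and CG14370, on 3R, had no more than 1 other annotated gene between them. CG31337 had 2.36, 1.97 and 2.06 in wild type and 4.82, 5.60 and 4.52 in klp10ARNAi, and CG14370 had 14.9, 15.2 and 16 against 24.6, 25.1 and 24.6. Both had close replicates, and CG14370 had the lowest ratio of means of all 54 genes, 1.61.

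Of 107 genes that flank the 54 on the chromosome, 64 were tested and not members, with a median log2 difference of 0.15, quartiles of -0.09 and 0.29, and a range from -2.87 (CG10910, next to CG5773) to 1.12 (Kif19A, next to CG14357). Since members are left out of these 64, their differences are not comparable with those of the 54. At an adjusted p under 0.01, edgeR called 0 of them and DESeq2 2 higher and 3 lower, while 7 were higher and 5 lower at an unadjusted p under 0.05 in edgeR. Besides CG11854, 16 of the 54 genes overlap another gene of the table in RefSeq. CG14301 overlaps qin, a Tudor domain gene of the piRNA pathway, whose log2 difference was 0.43 (adjusted p = 0.203 in edgeR). CG5509 overlaps CG18549, with -0.03, and CG12713 overlaps CG18081, with 0.14, neither past the edgeR test. For these pairs too, how reads from a shared stretch were divided is unknown.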

How the data were processed

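The authors trimmed reads with Trimmomatic (0.27 in the submitters' processing notes), aligned them to dm3 with STAR 2.6.0a with at most 100 places kept per read, and used TEtranscripts 2.0.3 to count reads per gene and per TE. Sample descriptions call the deposited values normalized, but they are whole numbers with unequal sums and were analysed as counts. Levels are counts per 1000000 counts of the scaling rows (1123 rows left out: 127 TEs, 636 CR-number genes and 360 rows with RNA: in the symbol). Tests used edgeR 4.0.16 (glmQLFit and glmQLFTest, TMM over genes and TEs, filterByExpr, Benjamini-Hochberg adjustment over 12100 features, limit 0.01) in R 4.3.3, with DESeq2 1.42.0 as an alternative. The fits were tested on simulated data, where far fewer changes of 1.5-fold and 2-fold were called than changes of 3-fold and 4-fold. Intervals of pooled ratios are exact binomial at 95% and cover counting error only. Genotype and replicate number came from the sample labels, and the 3 libraries per genotype are biological replicates per the study's methods. The counts of 3 wild type and 3 klp10ARNAi libraries entered, and the small RNA tables were not used here.

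Singly named genes were Klp10A, the 10 with the widest separation (library counts under 3 set to 3), the 10 with the highest klp10ARNAi level, 3 genes on each side of the limit, and neighbouring members. Any other name was chosen with its value in view. The rule, the members and the marker lists were chosen with earlier results of these data known. Symbols, synonyms, arms and neighbours came from RefSeq Release 6, matched by symbol or synonym, and gene overlaps and neighbours were read from that annotation, whose build differs from that of the files, so no coordinates are printed.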

Additional observations from a re-analysis of the deposited data

How the results depend on the processing

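Under the 3 other library scalings the genotypes did not overlap for any of the 54 genes. Of the 6072 CG-number genes, 45.8% (all rows), 20.6% (TMM) and 20.4% (DESeq2 size factors) did not overlap, with klp10ARNAi higher. The rule had already required a ratio of at least 1.5 in these libraries. Under the 3 scalings the lowest ratio of the 54 was 1.41, 1.44 and 1.42. The choice of the genes thus largely fixed this outcome, and nothing is read from it. How many genes met the rule depended on scaling and limits. Against 54, the number was 130 (40 of the 54 among them) scaled over all rows of the table, where the median of all scaling rows itself shifted by 0.51 on the log2 scale, 35 with TMM effective library sizes and 43 with DESeq2 size factors. It was 13 with a ratio of at least 2, 268 with a limit on the ratio midway between 1 and 1.5, 99 with no limit on the mean, 38 with a mean of at least 5, 12 relative to the spermatocyte markers and 14 relative to the spermatogonia markers. Leaving out 1 library gave 69 to 124 genes, with 84, 124 and 91 without wild type replicates 2 and 3 and klp10ARNAi replicate 2.

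The features called by edgeR at an adjusted p under 0.01 numbered 245, against 524 with total counts and no TMM (261 higher and 263 lower), 781 with the DESeq2 Wald test (123 and 658) and 1685 at a limit of 0.1. Leaving out 1 library gave 1 to 389, with 8, 47 and 1 without klp10ARNAi replicates 1, 2 and 3 and 389 without wild type replicate 2. Members called higher numbered 9, against 33 with DESeq2, 45 with total counts, 5, 13 and 3 without wild type replicates 1, 2 and 3, and 0 without each klp10ARNAi replicate in turn, where 49, 51 and 49 had an unadjusted p under 0.05. The log2 difference of Klp10A was -2.47 to -2.27 on leaving out 1 library.

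Same-numbered replicates did not deviate together (correlations of -0.32, -0.44 and -0.13 over 11358 genes). Differently numbered replicates gave correlations from -0.38 (wild type replicate 1 and klp10ARNAi replicate 3) to 0.50 (wild type replicate 1 and klp10ARNAi replicate 2). With 3 libraries per genotype, whether the numbers pair the libraries cannot be told from these values. With the replicate number as a block, edgeR called 98 features (3 higher and 95 lower) and 1 member. Groups of members by protein similarity were planned and not run. A level of 1 rests on about 10 counts per klp10ARNAi library, where 1 count is a level of 0.102 to 0.110. In wild type it rests on fewer, since 1 count is a level of 0.121 to 0.179 there. Such counts limit the ratio of a gene.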
